A study of Drosophila melanogaster with 9 samples.

Results

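Neuropeptide precursor genes, the genes of the enzymes that process their products and dimm, a transcription factor of peptide-secreting cells, were followed in the central nervous system of Drosophila larvae that lack 1 or both of a pair of neuronal RNA-binding proteins. The set held 40 genes, taken by their FlyBase symbols: 33 precursors, 6 processing genes and dimm. Genes for Pdf, insulin-like and ecdysis peptides were left out. Of the 40, 38 had a row among the 17421 genes of the deposited table, and Gpa2 and Nplp2, which had no row under their current gene ID, were not analysed here. In 35 of the 38 the mean level was high enough for a test.

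Transcript 3' ends were sequenced with the QuantSeq REV kit from 40 ng of total RNA of dissected central nervous systems of 1st instar larvae, the stage that follows hatching. The wild-type strain Canton-S served as the control for elav5, whose larvae were homozygous for a deleted elav gene, and for elav5/fne, whose larvae were homozygous for deletions in both elav and fne. elav and fne encode ELAV/Hu proteins, which bind RNA in neurons and control splicing and 3' end choice. Larvae of all 3 genotypes were kept at 25 °C and picked by hand with a visible marker, and each genotype had 3 libraries. No source used here gives their sex, the extent of each deletion or whether the strains share a genetic background. An effect of strain and an effect of losing elav and fne therefore cannot be told apart. Nothing states that replicates came from separate animals or pools, so the p-values cover the spread among these samples alone, and that spread may be technical.

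Neuropeptides are cut out of larger precursor proteins inside dense-core vesicles. In flies the proprotein convertase encoded by amon, helped by the chaperone 7B2, cuts the precursor, and the carboxypeptidase encoded by svr trims the exposed basic residues. Many peptides are then amidated at their end in consecutive steps, by the product of Phm and then by those of Pal1 and Pal2. dimm encodes a bHLH transcription factor that promotes the peptide-secreting state and is known to activate Phm. Many precursors are each made by a small set of identified neurons in the larva, and many also by endocrine cells of the gut.

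Levels are given as normalised CPM, the deposited size-factor-scaled reads put on a scale of 1000000 for an average library, and values of a group are listed in the order of replicates 1, 2 and 3. Libraries held between 15241461 and 18822734 reads, and 3 reads, taken as the floor for counting error only, were 0.150 to 0.196 normalised CPM. elav was at 1.90% of its Canton-S mean in elav5 and at 2.76% in elav5/fne, and fne was at 93.1% and 7.44%. The labelled tissue was checked on 10 neuron markers, which were found in every genotype. Their summed level was 7548 to 7736 normalised CPM in Canton-S, 6122 to 6792 in elav5 mutants and 2932 to 3624 in the elav5/fne double mutants. All 10 were called lower in elav5/fne against Canton-S, where 17.5% of all tested genes were. The 5 neuroblast markers, genes of neural stem cells, summed to 40.2 to 53.4, 48.8 to 58.0 and 211 to 315. All 5 were called higher in elav5/fne against Canton-S, where 25.8% of all tested genes were. Muscle markers summed higher in all elav5/fne libraries and in elav5 replicates 1 and 2 than in any Canton-S library, and varied widely within both mutants. In elav5/fne against Canton-S 6 of 16 were called higher, 37.5% against 25.8% of all tested genes, and in elav5 0 were called. The 16 genes summed to 719 to 907 across Canton-S libraries. The elav5 sums were 7578, 2112 and 661, and those of elav5/fne were 1733, 4275 and 8612. The 17 gut markers summed to 1076, 26.6 and 61.7 in elav5, to 46.6, 517 and 1536 in elav5/fne and to 23.9 to 173 in Canton-S, and betaTry and gammaTry were at 0 throughout. Fat body markers stood apart in Canton-S replicate 2, where 10 genes summed to 804, against 519 and 446 in replicates 1 and 3 and 257 to 467 in the mutants. Their mean log2 level was 5.27 there and 1.96 to 2.42 in all other libraries. Glial markers summed to 2592 to 2784, 2676 to 4231 and 2250.3 to 2870 in the 3 genotypes. In these bulk samples, fewer peptide-secreting cells and less RNA per cell cannot be told apart.

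In Canton-S the precursors differed in level over more than 2 orders of magnitude, and 5 of them made up 54.4% of the summed precursor level. Reads of the 3' end are counted per transcript and were not divided by gene length. Proc, which encodes proctolin, a peptide that acts on muscle, was the highest at 385, 339 and 372 normalised CPM and made up 19.2% of the sum. It was followed by AstA, the gene of the allatostatin A peptides that act in feeding, at 214, 187 and 215, and by ITP, the ion transport peptide gene, at 158, 170.0 and 183. Dh31, a calcitonin-like diuretic hormone gene, was at 153, 166 and 164, and Gpb5, which encodes the beta subunit of thyrostimulin, was at 120.4, 145 and 139.7. The lowest library of AstA lay above the highest of ITP, while ITP and Dh31 overlapped and cannot be ordered. Below these came Ms at 99.6 ± 2.77 (mean ± SD, n = 3, like all values in this form), Nplp1 at 95.5 ± 15.6 and AstC at 68.4 ± 2.29. A further 10 precursors, Dh44 to CCHa2 in the plot of all libraries, had means between 31.9 and 62.2. At the low end of those tested were AstCC at 4.11, 5.54 and 2.40, Ptth at 2.80, 2.87 and 2.34 and CNMa at 1.35, 1.11 and 0.240.

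**Figure D1:**
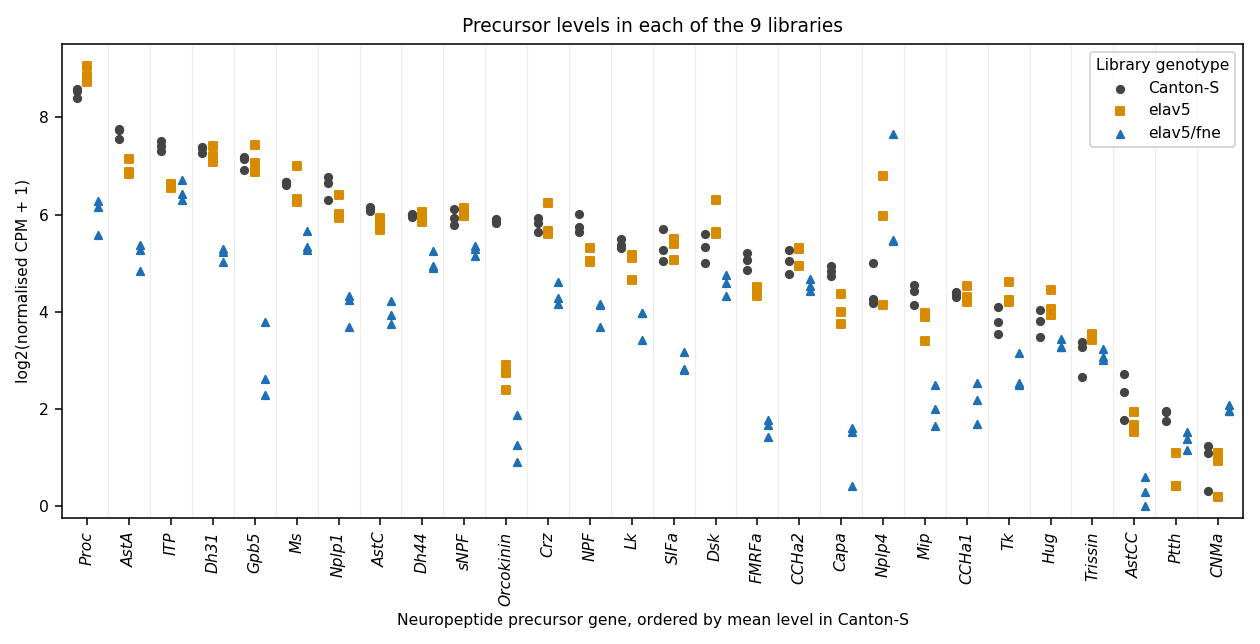
Level of each of the 28 tested precursors in every library, on the log2(normalised CPM + 1) scale, with genes ordered by their Canton-S mean and 1 point per library (circles Canton-S, squares elav5, triangles elav5/fne). The elav5/fne libraries lie below all Canton-S libraries for 25 of the 28 genes, as for 23.7% of all tested genes, while the elav5 libraries do so for 10, as for 17.4% of all.

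Nplp3, RYa and amn were too low for a test. RYa, which encodes RYamide, had 0 reads in all 9 libraries. Nplp3 had 3 reads in elav5 replicate 2, 3 in elav5/fne replicate 1 and 0 in the others. amn, the amnesiac gene known from memory mutants, had 5, 6 and 0 reads in Canton-S, 4, 2 and 0 in the elav5 and 2, 9 and 0 in the elav5/fne libraries. No difference in these genes was detectable at this depth.

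With the deposited scaling the summed precursor level overlapped between Canton-S and elav5, and it was lower in all elav5/fne libraries. Over the 31 precursors in the table it was 1841, 1915 and 1962 normalised CPM in Canton-S, 1693, 1656 and 1959 in elav5, and 578, 596 and 651 in elav5/fne. The means were 1906 ± 60.9, 1769 ± 165 and 608 ± 38.1, so elav5/fne held 31.9% of the Canton-S sum and elav5 92.8%. In reads, precursors made up 32741 to 38058 per library in Canton-S and 9348 to 11082 in elav5/fne. The genes behind the sum also changed rank. Proc carried 19.2% of it in Canton-S, 26.7% in the elav5 and 10.6% in the elav5/fne libraries. In elav5/fne the largest shares of the mean sum were those of Nplp4, at 15.8%, and ITP, at 14.6%. The first place of Nplp4 rested on replicate 3 alone. Nplp4 was at 42.8, 43.2 and 202 normalised CPM in elav5/fne, against 104, 85.3 and 77.8 for ITP. Without Nplp4 the elav5/fne sum was 512.

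**Figure D2:**
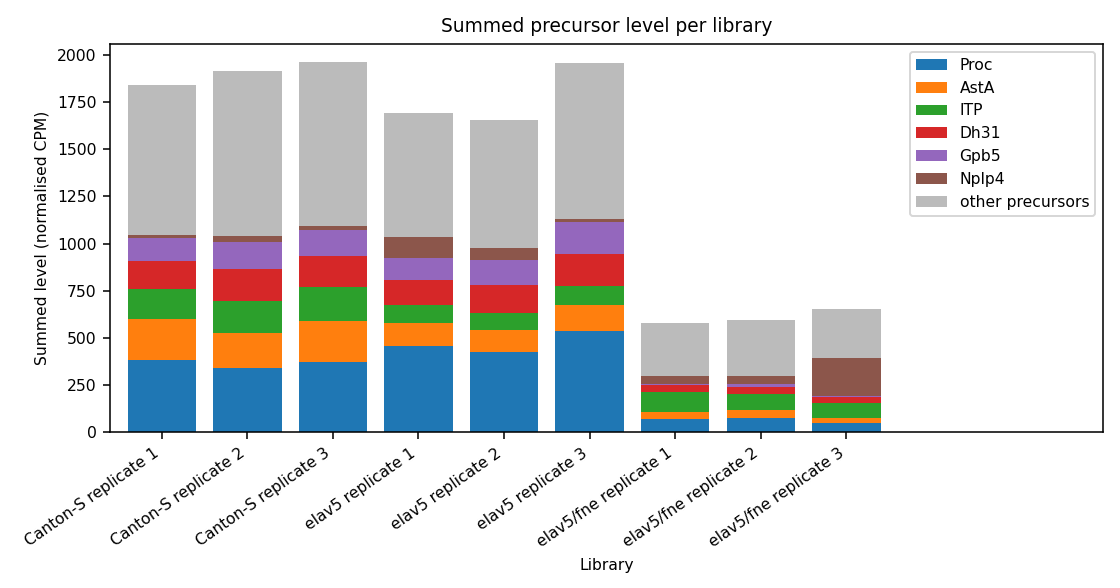
Summed level of the precursors in each of the 9 libraries, in normalised CPM, with 6 precursors in colour and the others in grey. The 3 elav5/fne bars reach 578 to 651, against 1656 to 1962 in the other 6 libraries, and the Nplp4 segment is widest in elav5/fne replicate 3.

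With elav alone missing, 6 precursors fell and the others did not pass the test. The call was an adjusted p under 0.05 in limma with Benjamini-Hochberg adjustment over all 9384 tested genes, of which 15.2% were called, 8.17% higher and 7.04% lower. Of 28 precursors tested 0 rose, 6 fell and 22 did not pass by limma, and edgeR and DESeq2 on the recovered reads gave the same counts. At an unadjusted p under 0.05 in limma 2 were higher and 9 lower, but the share of all tested genes at that threshold was not computed. The median log2 change was -0.11 against 0.02 for all tested genes. Counting the 7 other members, 7 of 35 were called. Leaving out Canton-S replicate 1 gave 3 calls, and leaving out Canton-S replicate 2 or elav5 replicate 1 gave 4. It came to 6 with both elav5 replicate 1 and elav5/fne replicate 3 left out, the libraries with the highest muscle levels of their genotypes. Scaling to the library total moved the median of all genes from 0.02 to -0.12, and 9 members were then called.

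Orcokinin, the gene of the orcokinin peptides (chromosome 2R, 23946959 to 23949076, dm6), stood out with 57.4, 59.1 and 55.8 normalised CPM in Canton-S and 5.66, 6.46 and 4.26 in elav5. The groups lay far apart, and the fall was 3.19 on the log2(normalised CPM + 1) scale used for all changes (SE 0.25, adjusted p = 9.69e-05). elav5 retained 9.5% of the Canton-S mean. ITP (chromosome 2R, 24537421 to 24558961) was next in strength of evidence, at 158, 170.0 and 183 in Canton-S and 98.5, 93.1 and 96.4 in elav5, a fall of 0.82 (SE 0.12, adjusted p = 0.00286). The 3 elav5 libraries lay close together, well below Canton-S. Both calls held under every alternative setting and without each library.

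The other falls in elav5 were smaller or rested on few reads, and each was lost without at least 1 library. AstA went from 214, 187 and 215 to 117, 113 and 141 and fell by 0.73 (adjusted p = 0.0134), with -0.70 and an adjusted p of 0.0576 without Canton-S replicate 1. NPF, the neuropeptide F gene known from feeding behaviour, went from 48.8, 52.4 and 63.1 to 31.8, 38.8 and 31.4 and fell by 0.67 (adjusted p = 0.0286). FMRFa, the gene of FMRFamide peptides that act on muscle, went from 28.0, 36.1 and 32.4 to 19.0, 20.6 and 21.7, a fall of 0.63 (adjusted p = 0.0321). In all 3 genes the elav5 libraries lay below all Canton-S libraries. The NPF change was -0.75, -0.70 and -0.57 without Canton-S replicates 1, 2 and 3, and -0.63 and -0.62 without elav5 replicates 1 and 3, each no longer past the threshold. FMRFa lost its call in the same way without Canton-S replicates 1, 2 and 3 (-0.72, -0.54 and -0.62) and without elav5 replicates 1 and 2 (-0.58 and -0.63). Ptth, whose hormone drives ecdysone production in the ring gland, had 56, 57 and 39 reads in Canton-S and 5, 5 and 17 in elav5. It fell by 1.24 (adjusted p = 0.0218) and lost its call without Canton-S replicates 1 and 2 (-1.22 and -1.20) and without elav5 replicates 1 and 2 (both -1.13). Of 5 tested ring gland markers 3 were called lower in elav5, where 7.04% of all tested genes were called lower. Over 6 genes these markers summed to 114 to 170.0 in Canton-S and 41.8 to 73.6 in elav5. In elav5/fne 4 of the 5 were called lower, against 17.5% of all tested genes, and the sum was 62.5 to 88.6. Ptth kept 58.6% of its Canton-S mean there and did not pass. The part of these markers in the Ptth result was not tested.

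Other abundant precursors did not pass the test in elav5. Proc was at 459, 426 and 534 normalised CPM in elav5, all above the 385, 339 and 372 of Canton-S, without passing the test (log2 0.37, adjusted p = 0.178), although it passed without elav5/fne replicate 3 (adjusted p = 0.0445). Dh31 had a 95% interval of -0.37 to 0.15 on the log2 scale, Dh44 of -0.32 to 0.22 and sNPF of -0.18 to 0.36, and their libraries overlapped. Gpb5 and Ms varied more between elav5 libraries, with intervals of -0.70 to 0.79 and -0.55 to 0.31. Capa was lower in all 3 elav5 libraries, at 12.4, 14.9 and 19.6 against 25.7, 27.4 and 29.9, and missed the threshold (log2 -0.81, adjusted p = 0.115). It passed without elav5/fne replicate 3 (adjusted p = 0.0224), with a pseudocount of 5 (0.0267) and in the fit over the 2 genotypes (0.0302). The spread among elav5 libraries had an order. For 19 of the 28 precursors the highest elav5 value was that of replicate 3, the library with the lowest muscle level of its genotype, whose part in these differences was not tested.

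**Figure D3:**
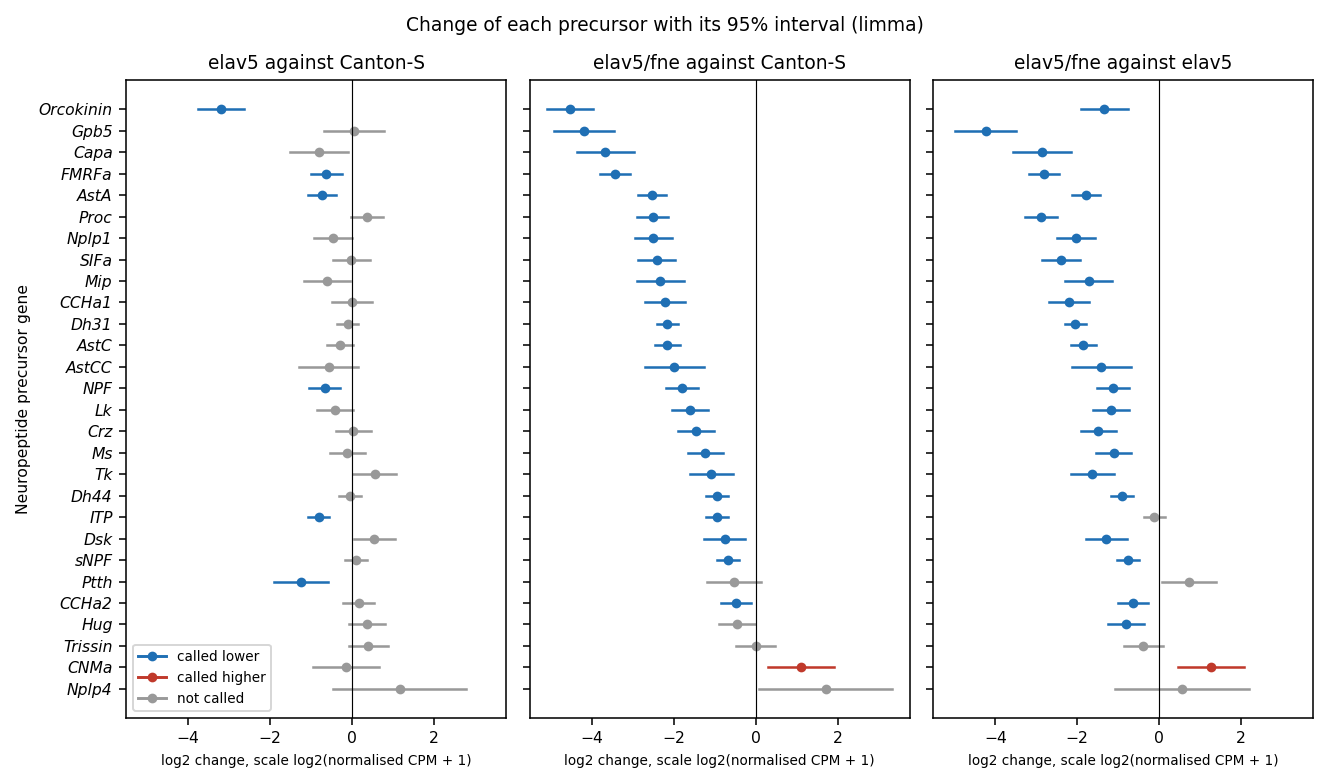
Change of each of the 28 tested precursors in the 3 comparisons, as the log2 change with its 95% interval from limma, with genes ordered by their change in elav5/fne against Canton-S. Blue genes were called lower, red higher and grey neither: 6 genes are blue in the first panel and 23 in each of the other 2. Of all tested genes 7.04%, 17.5% and 12.3% were called lower in these comparisons.

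With both elav and fne missing, the great majority of precursors fell. In elav5/fne against Canton-S, where 43.2% of all tested genes were called, 25.8% higher and 17.5% lower, 23 of 28 precursors fell, 1 was called higher and 4 did not pass. These shares are 82.1% lower and 3.57% higher. Their median log2 change was -1.70 against 0.15 for all tested genes, and it lay 1.85 below that of all genes with the deposited scaling and 1.86 below it with TMM or library total scaling. TMM scaling moved the median of all genes to 0.02. For 25 of the 28 no elav5/fne library reached the lowest Canton-S library, a pattern seen in 23.7% of all tested genes. What remained ranged from 2.84% to 69.9% of the Canton-S mean among the 23, with a median of 21.6%. 5 of them kept at most 10%, 8 kept 10% to 25%, 5 kept 25% to 50% and 5 kept more. All 35 tested members gave 29 calls, a number that ranged from 25 to 31 without each library in turn and came to 27 with both elav5 replicate 1 and elav5/fne replicate 3 left out. The lowest elav5/fne value was that of replicate 3, the library with the highest muscle level, for 15 of the 28 precursors. That count was not made over all tested genes. The neuron marker list had a median of -1.05 in the same comparison, and its part in the precursor result was not tested.

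The deepest losses were in 5 genes that kept at most 10% of their Canton-S mean. Orcokinin was at 0.865, 2.64 and 1.40 normalised CPM in elav5/fne, 2.84% of Canton-S (log2 -4.53, SE 0.25, adjusted p = 1.90e-06). Capa (chromosome 3R, 29912991 to 29914346), the gene of the CAPA peptides that act on the Malpighian tubules, was at 1.85, 2.04 and 0.317, against 25.7, 27.4 and 29.9 in Canton-S (log2 -3.67, adjusted p = 1.91e-05). Gpb5 (chromosome 2L, 23311700 to 23312464) was at 3.83, 12.8 and 5.14, down from 120.4, 145 and 139.7 (log2 -4.19, SE 0.33, adjusted p = 1.26e-05). Gpb5 thus went from rank 5 among the precursors in Canton-S to rank 18 in elav5/fne. FMRFa (chromosome 2R, 9906294 to 9910457) kept 6.45%, at 1.67, 2.15 and 2.41 against 28.0, 36.1 and 32.4 (log2 -3.43, adjusted p = 9.66e-07). AstCC, a low allatostatin C paralogue, went from 82, 110 and 40 reads to 0, 4 and 8 and kept 6.0% (adjusted p = 9.05e-04).

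Precursors of diuretic and ion-regulating hormones differed widely from each other in elav5/fne. Besides Capa, Dh31 (chromosome 2L, 8491868 to 8506845) fell by 2.16, from 153, 166 and 164 to 36.4, 38.1 and 31.7 normalised CPM (adjusted p = 1.66e-06). Lk, the leucokinin gene, was at 14.8, 14.6 and 9.70 against 40.3, 38.9 and 44.2 (log2 -1.61, adjusted p = 1.48e-04). Dh44, a gene of a hormone related to corticotropin-releasing factor, kept 51.1%, at 36.8, 29.6 and 28.9 against 62.4, 63.8 and 60.5 (log2 -0.95, adjusted p = 1.91e-04). ITP kept 52.3%, at 104, 85.3 and 77.8 (log2 -0.94, adjusted p = 1.90e-04). For every gene named here all elav5/fne libraries lay below all Canton-S libraries. Dh31 is the 1 member that overlaps another annotated gene, Bace, on the same strand, and its level may include reads of that gene.

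Among peptides of feeding, gut and metabolism the loss ran from strong to slight. AstA (chromosome 3R, 24760530 to 24765071) was at 37.8, 40.5 and 27.6 against 214, 187 and 215, 17.2% of Canton-S (log2 -2.52, adjusted p = 3.20e-06). AstC, the allatostatin C gene, was at 12.5, 14.2 and 17.6 against 66.1, 68.3 and 70.7 (log2 -2.15, adjusted p = 3.96e-06). Mip, the gene of the myoinhibiting peptides, was at 2.10, 4.57 and 2.98 against 22.5, 16.5 and 20.4 (log2 -2.33, adjusted p = 8.13e-05). All 3 genes had libraries well apart. CCHa1, the CCHamide-1 gene, went from 19.5, 20.1 and 18.6 to 2.23, 3.50 and 4.76 (log2 -2.22, adjusted p = 4.27e-05). SIFa, whose SIFamide is made by very few brain neurons, went from 50.7, 31.8 and 37.7 to 6.0, 7.96 and 5.90 (log2 -2.41, adjusted p = 1.62e-05). These 5 genes, AstA included, kept between 16.3% and 21.6% of their Canton-S means. NPF was at 16.9, 16.6 and 11.8 against 48.8, 52.4 and 63.1 (log2 -1.80, adjusted p = 3.52e-05) and Tk, the tachykinin gene, at 4.57, 4.79 and 7.86 against 12.8, 16.1 and 10.5 (log2 -1.08, adjusted p = 0.00473). sNPF, the short neuropeptide F gene, which is active in many central neurons, kept 61.7%, at 40.1, 38.3 and 34.2 against 54.2, 60.2 and 68.3 (log2 -0.68, adjusted p = 0.00147).

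Dsk and CCHa2 fell with weaker support, since both calls depended on single libraries. Dsk, the drosulfakinin gene related to cholecystokinin, was at 26.1, 23.2 and 18.9 against 31.2, 47.6 and 39.2 (log2 -0.75, adjusted p = 0.0221). It was no longer called without Canton-S replicates 2 and 3 (-0.61 and -0.75) and without elav5/fne replicates 2 and 3 (-0.77 and -0.63). CCHa2, known as a nutrient signal of gut and fat body, was at 20.5, 21.9 and 24.5 against 26.2, 37.7 and 31.8 (log2 -0.49, adjusted p = 0.0389). Its call was lost without Canton-S replicates 2 and 3 (-0.36 and -0.48) and without elav5/fne replicates 1 and 2 (-0.43 and -0.48). Canton-S replicate 2, the library with the high fat body markers, held the highest Canton-S value of 16 of the 28 precursors, Dsk and CCHa2 among them. How often this library was highest over all tested genes was not computed, and the part of those markers was not tested. Hug, the hugin gene of feeding control, was at 8.65, 9.74 and 8.63 against 10.1, 15.3 and 12.9 and missed the threshold (log2 -0.45, adjusted p = 0.0896). It was called lower by edgeR and DESeq2 on the recovered reads (log2 -0.65 and -0.62, adjusted p = 0.0359 and 0.0339). In limma it passed with TMM scaling (-0.58, adjusted p = 0.0379), with library total scaling (adjusted p = 0.0463) and without Canton-S replicate 1 (-0.60, adjusted p = 0.0495).

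Genes of peptides that act on muscle and of corazonin and Nplp1 fell as well. Proc (chromosome 2L, 7864642 to 7871432), the highest precursor of Canton-S, went from 385, 339 and 372 to 70.3, 76.1 and 46.7 normalised CPM and kept 17.6% (log2 -2.51, SE 0.17, adjusted p = 5.56e-06). Ms, the myosuppressin gene, was at 37.6, 49.2 and 39.4 against 96.4, 101 and 101 (log2 -1.23, adjusted p = 6.88e-04). Crz, the gene of corazonin, a peptide linked to stress responses, was at 18.4, 23.4 and 16.7 against 48.7, 56.1 and 60.0 (log2 -1.46, adjusted p = 2.55e-04). Nplp1, a precursor of several brain peptides, was at 17.9, 19.0 and 11.9 against 78.3, 109 and 99.3 (log2 -2.50, adjusted p = 1.46e-05). None of these genes had overlapping libraries between the genotypes.

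The precursors not called lower in elav5/fne were few and mostly low. CNMa, the CNMamide gene, was the 1 precursor called higher, with 46, 60 and 45 reads against 27, 22 and 4 in Canton-S (log2 1.12, adjusted p = 0.0304). It passed the filter on low values only through its elav5/fne level, since its means were 0.900 in Canton-S and 0.715 in elav5, so the call is given as a value and not as support for a rise. It was lost with edgeR and DESeq2 on the recovered reads (adjusted p = 0.136 and 0.0992), with a pseudocount of 0.25 (0.0627), with the replicate block (0.0623), without Canton-S replicates 2 and 3 (log2 1.22 and 0.83) and without elav5/fne replicates 1, 2 and 3 (1.14, 1.07 and 1.14). Trissin, a cysteine-rich peptide gene, had a 95% interval of -0.47 to 0.48, at 8.34, 7.05 and 7.42 against 5.26, 9.31 and 8.69. Ptth had 26, 35 and 19 reads against 56, 57 and 39 and did not pass (log2 -0.52, 95% interval -1.18 to 0.14, adjusted p = 0.177). Its elav5/fne libraries all lay below its Canton-S libraries, as for 23.7% of all tested genes. Nplp4 varied most within genotypes, with 17.2, 31.1 and 18.2 normalised CPM in Canton-S, 110.4, 62.1 and 16.6 in the elav5 and 42.8, 43.2 and 202 in the elav5/fne libraries. In elav5/fne it did not pass (log2 1.71, adjusted p = 0.0820), and it passed under 4 alternatives. These were DESeq2 (adjusted p = 0.0403), the fit over the 2 genotypes (adjusted p = 0.0364) and the fits without elav5 replicate 1 (0.0487) or replicate 3 (0.0363). Its order within each mutant was that of the muscle markers and of the 12 markers of cuticle, epidermis and trachea, which summed to 88.8, 32.8 and 18.7 in elav5 and to 44.9, 64.3 and 145 in elav5/fne. Of these 12, Cpr47Ea was at 0 in every library, and the larval cuticle genes Lcp1 to Lcp4 had genotype means of at most 0.534. The part of these tissues in the Nplp4 values was not tested.

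The comparison of elav5/fne with elav5 asked what the added loss of fne changed. It shares its elav5/fne libraries with the previous comparison and its elav5 libraries with the first, so its values are given for themselves. Of all tested genes 30.8% were called, 18.5% higher and 12.3% lower, while 23 of 28 precursors fell, 1 was called higher and 4 did not pass. edgeR and DESeq2 on the recovered reads called 23 lower and 0 higher. limma had 2 higher at an unadjusted p under 0.05, for which the share of all tested genes was not computed. Their median log2 change was -1.37 against 0.15 for all genes. The 28 calls among all 35 tested members ranged from 26 to 29 without each library in turn and came to 28 with both elav5 replicate 1 and elav5/fne replicate 3 left out.

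Precursors that were not called in elav5 against Canton-S took large steps here. Gpb5 went from 117, 133 and 172 in elav5 to 3.83, 12.8 and 5.14 in elav5/fne (log2 -4.24, SE 0.33, adjusted p = 1.99e-05). Proc fell by 2.88, from 459, 426 and 534 to 70.3, 76.1 and 46.7 (adjusted p = 5.53e-06). SIFa was at 32.5, 40.8 and 44.2 in elav5 and fell by 2.40, and CCHa1 was at 22.2, 17.2 and 18.7 and fell by 2.21 (adjusted p = 2.86e-05 and 7.04e-05). Dh31, at 134, 147 and 170.0 in elav5, fell by 2.05 (adjusted p = 4.53e-06). For these 5 genes no elav5/fne library reached an elav5 library, a pattern seen in 24 of the 28 precursors and in 17% of all tested genes. Of the genes called in elav5, Orcokinin took a further fall of 1.34, from 5.66, 6.46 and 4.26 to 0.865, 2.64 and 1.40 (adjusted p = 0.00328). AstA, FMRFa and NPF fell by 1.80, 2.80 and 1.13 (adjusted p = 3.11e-05, 5.44e-06 and 9.23e-04).

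The other precursors that fell against elav5 started from these elav5 levels. AstC was at 56.0, 50.5 and 60.0 normalised CPM and fell by 1.85, and Mip was at 13.8, 14.7 and 9.56 and fell by 1.72. AstCC, with 29, 43 and 33 reads, fell by 1.41, and Capa fell by 2.86 from the levels given above. Nplp1 was at 60.1, 63.3 and 83.2 and fell by 2.03. All elav5/fne libraries of these 5 genes lay below all elav5 libraries, as for 17% of all tested genes. Tk was at 17.9, 23.6 and 17.4 and fell by 1.64, Crz was at 47.3, 49.9 and 74.3 and fell by 1.49, and Dsk was at 49.0, 47.4 and 78.2 and fell by 1.29. Lk was at 24.0, 33.5 and 34.8 and fell by 1.18, Ms was at 79.2, 75.7 and 128 and fell by 1.11, and Dh44 was at 56.3, 65.3 and 58.7 and fell by 0.90. sNPF, the least moved of this group, was at 63.0, 61.2 and 69.7 and fell by 0.77 (adjusted p = 0.00113). In this group the highest adjusted p was that of AstCC, at 0.00922.

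The difference in ITP was small beside these. It was at 98.5, 93.1 and 96.4 in elav5 and 104, 85.3 and 77.8 in elav5/fne, its libraries overlapped, and the difference did not pass (log2 -0.12, 95% interval -0.38 to 0.15, adjusted p = 0.489). The interval excludes a further loss as large as the fall of 0.82 in elav5 against Canton-S. ITP also has the longest annotated 3' UTR of the tested precursors, at 2206 bases, and 3 annotated 3' ends, against a median of 308.5 bases and 1 end for the 28. Values of these ends were not analysed here, since the table has 1 value per gene. Ptth was higher in all elav5/fne libraries than in elav5, with 26, 35 and 19 reads against 5, 5 and 17, and did not pass (log2 0.72, adjusted p = 0.0943) except without elav5 replicate 3 (log2 0.95, adjusted p = 0.0451). Hug, at 15.6, 14.3 and 20.6 in elav5, fell by 0.82 (adjusted p = 0.0114). CCHa2, at 38.2, 29.6 and 38.9 in elav5, fell by 0.64 (adjusted p = 0.0162), a call lost without elav5 replicate 3 (-0.58) and without elav5/fne replicates 1 and 2 (-0.59 and -0.63). CNMa, with 14, 2 and 17 reads in elav5, was called higher (log2 1.26, adjusted p = 0.0250), again having passed the filter only through its elav5/fne level. The call was lost with edgeR and DESeq2 (adjusted p = 0.117 and 0.0660), with the replicate block (0.0570), without elav5 replicate 2 (0.99) and without elav5/fne replicates 1, 2 and 3 (1.29, 1.22 and 1.28).

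The 6 processing genes did not move as one. In elav5 1 rose and 5 did not pass, a share of 16.7%, near the 15.2% of all tested genes. Against Canton-S 3 fell in elav5/fne, 1 rose and 2 did not pass, where 43.2% of all tested genes were called. The shares were 50% lower and 16.7% higher, against 17.5% and 25.8% of all tested genes. Against elav5 the counts were the same, where 12.3% of all tested genes were called lower and 18.5% higher. amon (chromosome 3R, 26697697 to 26714159), the convertase gene, was at 171, 171 and 189 normalised CPM in Canton-S, 244, 243 and 239.7 in the elav5 and 101, 98 and 88.0 in the elav5/fne libraries. It was thus highest in elav5 and lowest in elav5/fne, with no overlap between any genotypes. It rose by 0.45 in elav5 (SE 0.0885, adjusted p = 0.0100) and fell by 0.88 in elav5/fne against Canton-S (adjusted p = 5.15e-05) and by 1.33 against elav5 (adjusted p = 8.97e-06). All these calls held under every alternative setting.

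The chaperone gene 7B2 varied more between libraries, at 274, 254 and 226 in Canton-S, 201, 273 and 331 in the elav5 and 207, 201 and 166 in the elav5/fne libraries. Its elav5 libraries spanned the range of Canton-S and beyond, in the reverse order of their muscle levels. It did not pass in elav5/fne against Canton-S (log2 -0.39, adjusted p = 0.0937), where it was called lower by edgeR and DESeq2 on the recovered reads (-0.53 and -0.51, adjusted p = 0.0396 and 0.0115). limma also called it with TMM scaling (-0.53, adjusted p = 0.0326), with library total scaling (-0.46), in the fit over the 2 genotypes (adjusted p = 0.0243) and without elav5 replicate 1 or 3 (adjusted p = 0.0308 and 0.0492). Against elav5 it missed the threshold as well (log2 -0.46, adjusted p = 0.0725), and it passed with edgeR, DESeq2 and TMM scaling (adjusted p = 0.0333, 0.00339 and 0.0303). Without elav5 replicate 1 it was at -0.66 and passed (adjusted p = 0.00743), as it did with elav5/fne replicate 3 left out too (0.0144). svr (chromosome X, 496446 to 509072), the carboxypeptidase gene, was at 319, 322 and 311 in Canton-S. Its elav5 values were 283, 300.1 and 301, and its elav5/fne values of 233, 224 and 202 lay below all others. It fell by 0.53 in elav5/fne against Canton-S (SE 0.0828, adjusted p = 7.12e-04) and by 0.42 against elav5 (adjusted p = 0.00411), and did not pass in elav5 against Canton-S (log2 -0.11, adjusted p = 0.407). svr ends 162 bases before the start of elav on chromosome X in the annotation. Since the extent of the elav deletion is not given, an effect of the deleted DNA on svr and an effect of the missing protein cannot be told apart.

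The amidation genes split. Phm (chromosome 2R, 23985175 to 23988455), the gene of the first step, was at 131, 108 and 127 in Canton-S, 118, 120.4 and 146 in the elav5 and 157, 141 and 124 in the elav5/fne libraries, all overlapping. With the deposited scaling its change in elav5/fne against Canton-S had an interval of -0.090 to 0.49, where the median of all tested genes was 0.15. Under the alternative settings the change ranged from 0.057 to 0.29 and was never called. Pal2 (chromosome 2R, 23688077 to 23690838), a gene of the second step, was at 184, 212 and 217 in Canton-S and 199.7, 183 and 238 in elav5, which overlapped. It was at 67.9, 72.5 and 61.3 in elav5/fne and kept 33% of the Canton-S mean (log2 -1.59, SE 0.12, adjusted p = 1.06e-05). Pal1 (chromosome 2R, 9959549 to 9963853), the other gene of that step, went the opposite way. It was at 11.7, 9.11 and 8.69 in Canton-S and 11, 11.2 and 13.0 in elav5. With 19.8, 22.1 and 19.5 in elav5/fne it rose to 208% of Canton-S (log2 0.99, adjusted p = 8.27e-04). Summed over both genes the level was 214 ± 16.1 in Canton-S, 219 ± 29.0 in the single and 87.7 ± 6.83 in the double mutant. Pal1 made up 3.86% to 6.0% of that sum in Canton-S and 22.6% to 24.2% in elav5/fne. Against elav5, Pal2 fell by 1.60 and Pal1 rose by 0.75 (adjusted p = 1.81e-05 and 0.00608), and all these Pal1 and Pal2 calls held under every alternative setting.

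**Figure D4:**
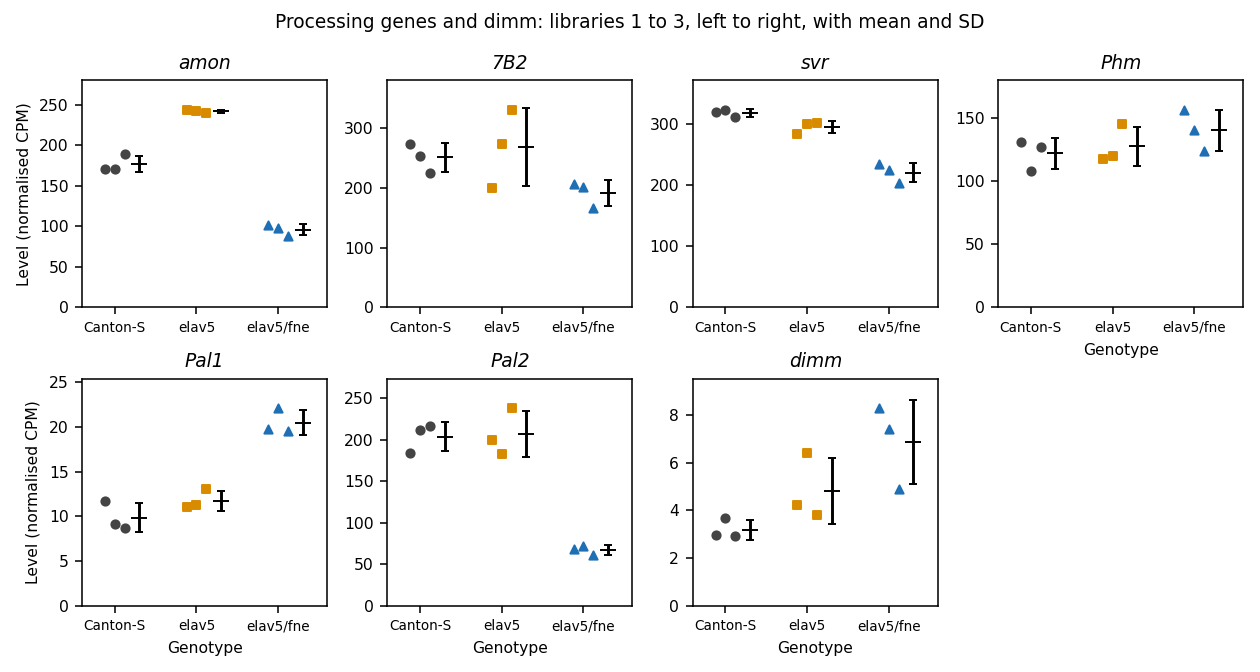
Levels of the 6 processing genes and dimm in normalised CPM, with 1 point per library in the order of replicates 1 to 3 and, to the right of each group, its mean and SD (n = 3), on axes that start at 0. amon is highest in elav5 and lowest in elav5/fne, Pal2 drops to 61.3 to 72.5 in elav5/fne, Pal1 and dimm are highest there, and Phm overlaps between genotypes.

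dimm (chromosome 2L, 21331756 to 21342155) did not fall with the precursors. It was low, at 2.95, 3.67 and 2.94 normalised CPM in Canton-S, 4.25, 6.40 and 3.80 in the elav5 and 8.28, 7.42 and 4.88 in the elav5/fne libraries, and its reads numbered 49 to 138 per library. All mutant libraries lay above all Canton-S libraries. It rose by 0.89 in elav5/fne (SE 0.26, adjusted p = 0.0191) and did not pass in elav5 (log2 0.45, adjusted p = 0.260) or between the mutants (log2 0.44, adjusted p = 0.235). The call was lost without Canton-S replicates 1 and 3 (0.85 and 0.84) and without elav5/fne replicates 1 and 2 (0.75 and 0.82).

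Genes of the dense-core vesicle and of peptide secretion changed in both directions. Of 20 listed, 19 were in the table and 18 were tested. In elav5 1 rose, 1 fell and 16 did not pass, 5.56% each way against 8.17% higher and 7.04% lower of all tested genes. In elav5/fne against Canton-S 3 rose, 7 fell and 8 did not pass. The shares in elav5/fne were 16.7% higher and 38.9% lower, against 25.8% and 17.5% of all tested genes, and the list median was -0.32 against 0.15 for all genes and -1.70 for the precursors. Cadps, which encodes the priming factor of dense-core vesicles, went from 309 ± 3.54 in Canton-S and 256 ± 10.01 in elav5 to 109 ± 23.2 in elav5/fne (log2 -1.53, SE 0.14, adjusted p = 3.05e-05). Sytbeta and Syt7, genes of synaptotagmins, calcium sensors of vesicle fusion, fell by 1.00 and 1.31 (adjusted p = 6.74e-05 and 8.83e-05). Syt7 was at 191 ± 25.5, 296 ± 35.7 and 76.4 ± 11 in the 3 genotypes, highest in elav5 like amon, and its rise there passed (log2 0.64, adjusted p = 0.0184). These calls in elav5/fne held under every alternative setting.

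**Figure D5:**
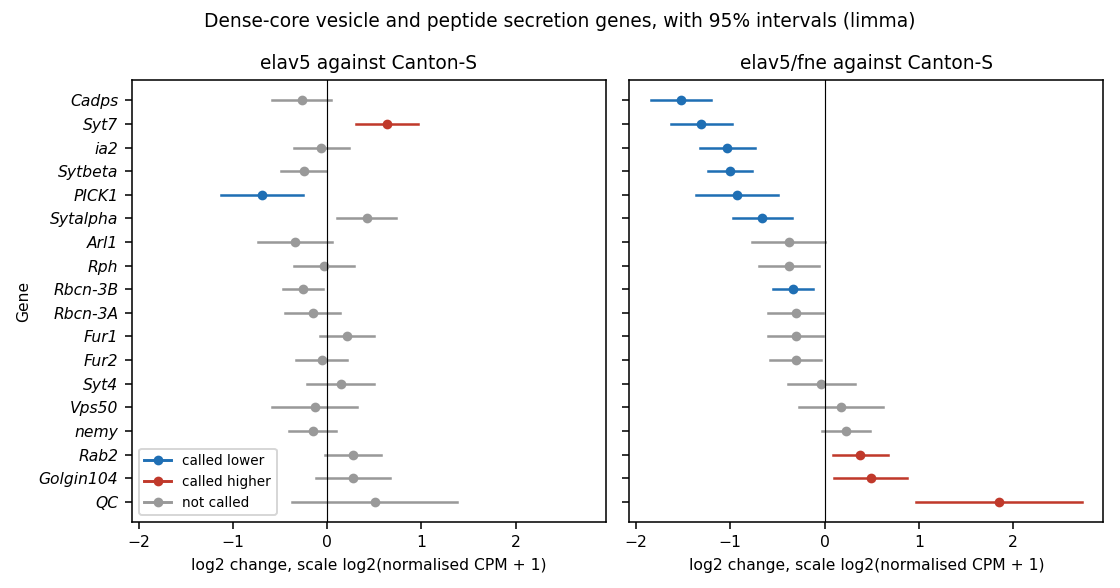
Change of the 18 tested genes of the dense-core vesicle and of peptide secretion in elav5 and in elav5/fne, each against Canton-S, as log2 change with its 95% interval from limma. In elav5 1 gene was called lower (blue) and 1 higher (red), and in elav5/fne 7 and 3. Of all tested genes 7.04% were called lower and 8.17% higher in elav5, and 17.5% and 25.8% in elav5/fne.

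Factors that specify peptide-secreting neurons in the embryo were followed as a list of 8. Of these, all tested, 0 were called in elav5 by limma, where 15.2% of all tested genes were called. edgeR called 0 and DESeq2 1. In limma 2 had an unadjusted p under 0.05, for which the share of all tested genes was not computed. In elav5/fne against Canton-S 1 rose, 2 fell and 5 did not pass, a share of 12.5% higher and 25% lower where 43.2% of all tested genes were called, which is near that background. wit, the BMP receptor gene that FMRFa expression in the thoracic ganglion is known to need, went from 35.8 ± 2.64 to 21.9 ± 1.67 (log2 -0.68, adjusted p = 0.00131). dac, a nuclear factor of the same neurons, fell by 0.52 (adjusted p = 0.0161). sqz, a zinc finger gene, rose from 22.8 ± 4.63 to 34.1 ± 1.43 (log2 0.58, adjusted p = 0.0158), a call lost with edgeR (adjusted p = 0.0522). ap and eya were low, at 4.97 ± 1.95 and 3.92 ± 1.01 in Canton-S and 6.40 ± 2.06 and 4.25 ± 0.643 in elav5/fne, and did not pass.

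Of the 40 members, 9 lie on chromosome arm 2L, 9 on 2R, 5 on 3L, 14 on 3R and 2 on X, while Gpa2 is on an unplaced scaffold of the annotation. Annotated structure of the tested precursors was near that of other genes. Their median gene span was 3526.5 bases against 2987 for tested protein-coding genes, their median longest 3' UTR 308.5 bases against 320, and their exon number, taken from the transcript with most exons, had a median of 3 against 4. Of these members 14 overlap another annotated gene, 13 of them only on the opposite strand, as Tk does with Ect3 and Phm with Sox14 and CG30178. The strand setting of the counting is not known here, so reads of such pairs may be shared.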

How the data were processed

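Libraries were made with the QuantSeq REV kit, per the labels' protocols. The submitters' processing notes name dm6 as the build. No source used here names the aligner, the counting program, or its annotation and strand setting. The authors' deposited signal is whole reads per gene divided by 1 size factor per library, as judged from the values, 100% of which were whole multiples of their column's step within 0.1. The design had assumed CPM. All 9 columns were mapped to samples, with 0 left over.

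Deposited values were multiplied by 1000000 over the mean column total. Of 17421 gene IDs, 17251 matched a symbol in BDGP6.54, which also gave coordinates. Genes with a mean of at least 1 were tested with limma 3.58.1 with a trend (R 4.3.3) on log2(normalised CPM + 1). All 9 libraries entered 1 fit, with genotype as the factor and Benjamini-Hochberg adjustment. The pipeline was tested on simulated data. Alternatives were pseudocounts of 0.25 and 5, no filter or a mean of 5, TMM and library total scaling, edgeR 4.0.16 and DESeq2 1.42.0 on recovered reads, a replicate block, fits over 2 genotypes, each library left out in turn, and elav5 replicate 1 and elav5/fne replicate 3 left out together. A log2 change with a pseudocount understates that of low genes.

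Members and lists were chosen with earlier results of these data known. Values in all libraries were given for members called in at least 1 comparison, for the processing genes and for dimm. From each other list, up to 3 genes called in elav5/fne against Canton-S were named, by smallest p. Protein and promoter sequences were not used here.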

Additional observations from a re-analysis of the deposited data

How the results depend on the processing

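In elav5 against Canton-S 3 of 7 member calls held under every alternative, in elav5/fne against Canton-S 25 of 29 and in elav5/fne against elav5 26 of 28. Member calls without each library ranged from 3 to 9, 25 to 31 and 26 to 29. Over all genes, elav5 against Canton-S gave 1428 calls, 2148 with DESeq2, and 707 to 1539 without each library, with 707 when Canton-S replicate 1 was left out and 732 for its replicate 2. The summed precursor level of Canton-S was 1972 with TMM scaling and 2010.0 with library total scaling. Without the most abundant precursor of each genotype it was 1541, 1296 and 512 in Canton-S, elav5 and elav5/fne.

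The log2 change took the other sign in 12 combinations of gene and comparison, at 35 settings of these in all, of which 0 were called. In elav5 against Canton-S, CCHa1 was at 0.0011 with DESeq2. With library total scaling Crz was at -0.12, Gpb5 at -0.11, sNPF at -0.065, Phm at -0.092, Pal2 at -0.14 and 7B2 at -0.087. SIFa was at 0.11 without elav5 replicate 1 and elav5/fne replicate 3. In elav5/fne against Canton-S Trissin was at -0.0029 with a pseudocount of 5, -0.12 with TMM scaling, -0.055 with library total scaling, -0.17 with edgeR and -0.14 with DESeq2. Without each library in turn, the lowest and highest log2 changes were as follows. In elav5 against Canton-S they were CCHa1 -0.11 to 0.068, CNMa -0.43 to 0.13, Crz -0.17 to 0.15, Gpb5 -0.11 to 0.17, Ms -0.36 to 0.015, SIFa -0.17 to 0.16, Phm -0.033 to 0.12, Pal2 -0.088 to 0.10 and 7B2 -0.10 to 0.26. In elav5/fne against elav5 they were Nplp4 -0.19 to 1.14. In elav5/fne against Canton-S they were Trissin -0.22 to 0.14. The cause was not tested.

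Pairing of the samples by replicate number was not seen. Deviations from the group means correlated at -0.697 to 0.199 for libraries with the same number and at -0.565 to 0.673 for others. Such deviations depend on each other within a genotype, so this check cannot exclude that libraries with the same number were handled together. With the replicate block 909, 3564 and 2304 of all genes and 5, 27 and 27 members were called in the 3 comparisons. Low reads limited CNMa, Ptth, AstCC and dimm.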

Other observations

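Of 5 tested genes of peptide breakdown 1 fell in elav5, where 15.2% of all tested genes were called. In elav5/fne against Canton-S 1 fell, 1 rose and 3 did not pass, near the 43.2% of all tested genes that were called. Nep4, which encodes a neprilysin-like endopeptidase, had 72.8 ± 5.10 normalised CPM in wild type and 37.7 ± 7.79 and 31.1 ± 2.50 in elav5 and elav5/fne (mean ± SD, n = 3). Its fall was 0.95 on the log2 scale for elav5 (adjusted p = 0.00440) and 1.20 for elav5/fne (adjusted p = 1.96e-04), and the second call held under every alternative. Nep1, of the same family, rose by 0.35 in elav5/fne (adjusted p = 0.0297), a call lost under TMM scaling (log2 0.22, adjusted p = 0.151) and without Canton-S replicates 1 and 2 (0.32 and 0.35) or elav5/fne replicates 1 and 2 (0.37 and 0.29).

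QC, a gene of glutaminyl cyclase, which forms the pyroglutamate start of some peptides, was chosen after its values were seen. Its level was 3.64 ± 1.44 normalised CPM in wild type, against 6.08 ± 4.31 and 15.2 ± 1.48 in elav5 and elav5/fne. In elav5/fne it rose by 1.85 on the log2 scale (SE 0.39, adjusted p = 0.00408), a call that held under every alternative.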
